A study of Rattus norvegicus with 4 samples.

Results

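Collagen chain genes encode the alpha chains from which the collagens of the extracellular matrix are built. Here they were taken by name, as every gene symbol made of Col, a number, the letter a and a second number. The rule found 42 of the 32883 genes in the files, and it uses no measured value. By the kind of structure their products form, 10 are fibrillar, 6 belong to the basement membrane network, 5 to the beaded filaments, 3 to the short-chain networks, 9 to the fibril-associated collagens with interrupted triple helices (FACITs) and their relatives, 4 are transmembrane, 2 are multiplexins and 3 are anchoring or other types. Col1a2, Col6a3 and Col21a1, which the rule would take, were not analysed here, so the summed collagen shares and the accounts of types I and VI do not hold them.

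Fibrillar collagens such as types I, III and V assemble into the fibrils that carry tension, and FACITs bind to the surface of those fibrils. Type IV collagens form the sheet-like network of the basement membranes that surround adipocytes, mural cells and vessels, and type VI forms beaded filaments close to cells. In adipose tissue, fibroblasts are known as the main source of fibrillar collagen, while adipocytes, mural cells and endothelial cells each contribute to their own basement membrane.

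The nuclei came from frozen fat of male SS/HsdMcwiCrl rats, the Dahl salt-sensitive strain, aged 16 weeks, labelled as normal, with no treatment named. The groups are 2 libraries of the perivascular fat around the thoracic aorta (taPVAT) and 2 of the brown fat below the shoulder blades (BAT), numbered replicate 1 and replicate 2. Separate rats are not named in the labels, so the p-values below measure the spread between these libraries only. The question of the comparison is how the fat of the aorta differs from a classical brown fat depot.

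The libraries held 63654436 to 158140959 UMIs (unique molecular identifiers, each standing for 1 captured RNA molecule) and 11915 to 37871 nuclei after filtering. Pairs of libraries shared 93 to 381 cell barcodes, 0.754% to 1.19% of the smaller library. Nuclei were grouped by clustering without the collagen genes and named from marker lists that hold no collagen. This gave fibroblast-like nuclei (606 to 1005 per library), mural nuclei, meaning pericyte-like and smooth muscle-like nuclei of vessel walls (288 to 744), and adipocyte-like nuclei (9269 to 26427), beside endothelial, mesothelial, Schwann and immune classes. The summed fibroblast markers lay between 5621 and 9932 CPM in fibroblasts and between 78.7 and 121 CPM in adipocytes, where CPM means UMIs per 1000000 UMIs of a class in a library. Adipocyte RNA was also counted in the other nuclei. In fibroblasts the median marker of adipocytes reached 28.1% to 44.7% of the level in adipocytes, and in mural nuclei 31.3% to 53.2%. Its part in the collagen results was not tested. Fibroblasts outside the cluster described below lay mostly in a cluster of the libraries numbered 1 or in another of those numbered 2, in both tissues.

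Collagen transcripts took a larger share of the RNA of fibroblasts than of any other class in each library. Their summed share in fibroblasts was 0.736% (95% Wilson interval 0.723 to 0.750) and 1.42% (1.40 to 1.44) of UMIs in taPVAT replicates 1 and 2, and 1.14% (1.12 to 1.15) and 1.37% (1.35 to 1.39) in BAT. In mural nuclei it lay between 0.342% and 0.564%, and in adipocytes between 0.0821% and 0.194%. The adipocyte share was 0.0941% and 0.178% in taPVAT and 0.0821% and 0.194% in BAT, so that the replicate 2 libraries were the higher ones in both tissues. In T or NK lymphocytes, which are not known as collagen producers, the share was 0.0543% to 0.0837%. These intervals cover counting error only.

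Among the 42 members, 31 had at least 20 UMIs in the class where their mean CPM was highest, and they are described by that class, with no test. Of these, 16 were highest in fibroblasts, 4 in Schwann nuclei, 3 in mural nuclei, 2 in adipocytes, 2 in lymphatic endothelium and 1 each in mesothelial, vascular endothelial, myeloid and T or NK nuclei. In every library, 10 of the 16 were highest in fibroblasts, 3 of the 4 in Schwann nuclei, 2 of the 3 in mural nuclei and 0 of the 2 in adipocytes. Col11a2, counted for adipocytes by its mean, was highest there in 0 of 4 libraries. CPM is not corrected for transcript length, so levels are compared between classes and libraries for 1 gene at a time and not between genes.

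**Figure D1:**
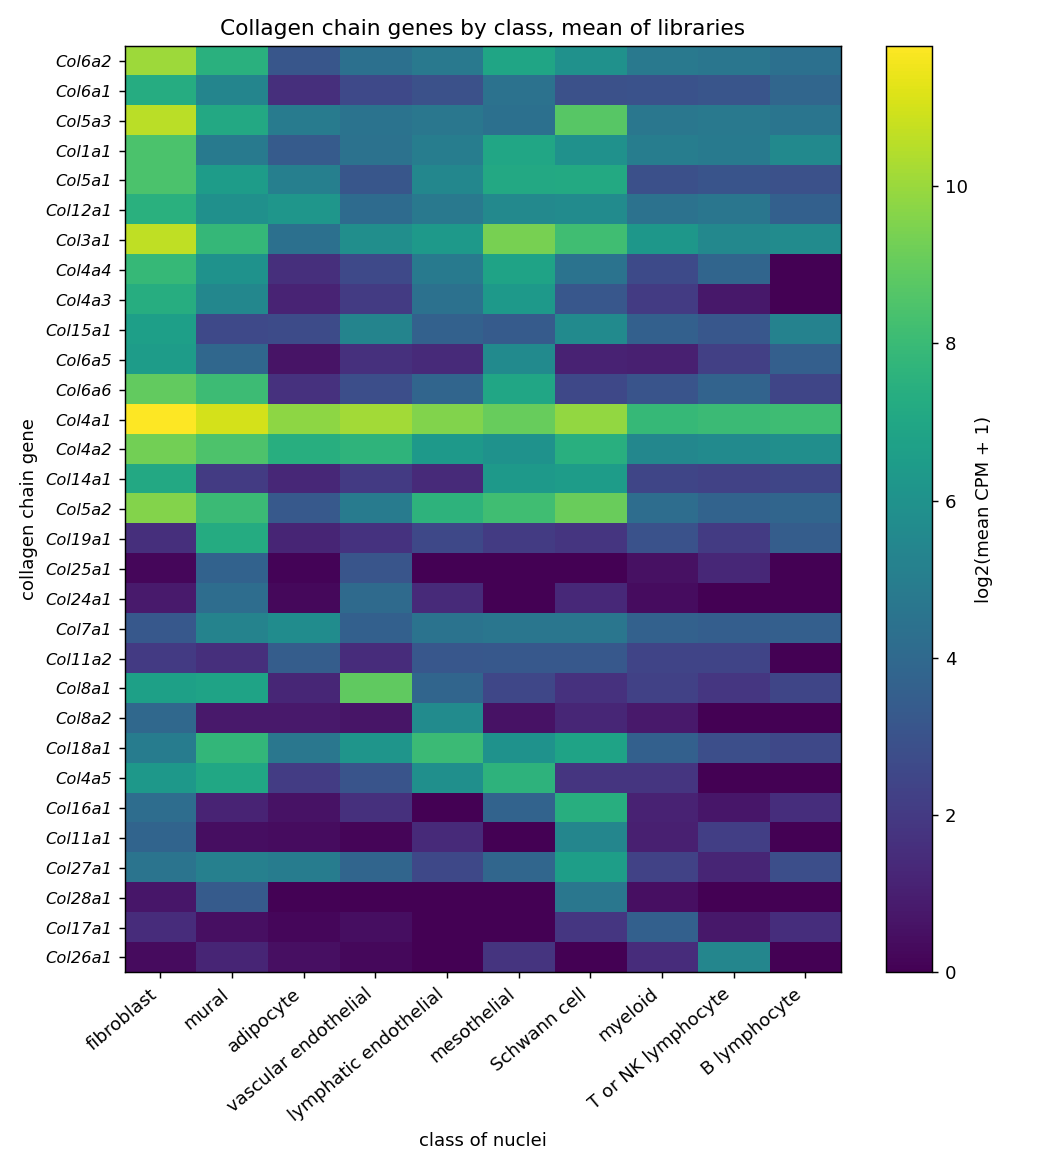
Each row is 1 of the 31 collagen chain genes with at least 20 UMIs in its highest class, each column a class of nuclei, and the colour is log2(mean CPM + 1) over the libraries with at least 20 nuclei of the class. The upper 16 rows are highest in fibroblasts, and rows further down are highest in the mural, adipocyte, endothelial, mesothelial, Schwann, myeloid and T or NK columns in turn.

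Of the fibrillar chains, Col1a1, Col3a1, Col5a1, Col5a2 and Col5a3 were highest in fibroblasts in every library. Col3a1, the single chain of type III collagen, stood at 1318 and 1829 CPM in taPVAT fibroblasts and at 1528 and 1735 CPM in BAT fibroblasts. In adipocytes it was at 14.2 to 27.7 CPM, 0.774% to 1.60% of its fibroblast level, and the median fibroblast marker was at 1.38% to 1.96% there. Mesothelial nuclei, of which BAT held none, carried Col3a1 at 528 and 789 CPM. Schwann nuclei were next to fibroblasts for Col5a2, with 469 to 643 CPM against 632 to 864 CPM.

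Col11a1 and Col27a1, fibrillar chains best known from cartilage, were highest in Schwann nuclei, the glia of peripheral nerves. Col11a1 was at 29.8 to 50.3 CPM there and at 4.07 to 23.4 CPM in fibroblasts, with no overlap between the classes. Col24a1 was about as high in vascular endothelium (10.8 to 23.0 CPM) as in mural nuclei (10.7 to 29.8 CPM), with overlapping libraries.

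The basement membrane chains were spread more widely. Col4a1, which joins with the Col4a2 product in the type IV network of nearly all basement membranes, was at 1411 to 4635 CPM in fibroblasts, 1460 to 2560 CPM in mural nuclei, 640 to 1717 CPM in vascular endothelium and 462 to 1253 CPM in adipocytes. In adipocytes this was 13.4% to 38.3% of the fibroblast level, above the percentage of each of the 14 fibroblast markers in the same library. T or NK lymphocytes held Col4a1 at 163 to 382 CPM, so part of the level in any class may be free RNA. That part was not tested.

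Col4a1 and Col4a2 start head to head. In the RefSeq promoter table (build GRCr8), which matched 33 of the 42 members by symbol with 36 start sites, 76 bases lie between their start sites, at chr16:84885521-84885596, printed on the plus strand, on which Col4a1 is read. The other type IV pairs lie further apart, with 412 bases between Col4a3 and Col4a4 and 1414 between Col4a5 and Col4a6. The stretch is shown because both chains start from it. Capitals mark the only match to the motifs searched, a GC box on the minus strand.
Col4a1 Col4a2 gap: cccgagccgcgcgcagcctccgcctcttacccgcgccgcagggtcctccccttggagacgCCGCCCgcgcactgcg
The motifs were the TATA box (TATAAA), the CCAAT box (CCAAT), the GC box (GGGCGG) and an AP-1 site (TGACTCA), each on both strands. Over the 250 bases before the start, a GC box was at 20 of the 36 collagen start sites (55.6%) and in 30.5% of all 33469 promoters, while a TATA box was at 3 of the 36 (8.33%) and in 12.9% of all. By gene these were 19 and 3 of 33, as Col24a1 and Col6a5 have several start sites in the table. A match is a description of the letters only.

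Col4a3 and Col4a4, known from the network of the kidney filter, were highest in fibroblasts in all 4 libraries, Col4a3 at 121 to 186 CPM. Col4a5, whose product partners theirs, was at 136 and 258 CPM in the mesothelial nuclei of taPVAT and at 68.4 to 172 CPM in mural nuclei. Within the mural class it lay in the smooth muscle cluster, at 280 CPM in taPVAT replicate 1 and 327 and 471 CPM in BAT, with 9.42 to 37.0 CPM in the pericyte cluster.

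The beaded filament chains Col6a1, Col6a2, Col6a5 and Col6a6 were highest in fibroblasts by their mean. Col6a2 was at 604 and 1342 CPM in taPVAT fibroblasts and 1053 and 1307 CPM in BAT fibroblasts, with 119 to 242 CPM in mural nuclei. Col6a6 was split within the mural class: pericytes held 277 to 546 CPM, while smooth muscle held 3.16 to 29.3 CPM.

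Among the FACITs and relatives, Col12a1 and Col14a1 were highest in fibroblasts by their mean, Col16a1 in Schwann nuclei and Col19a1 in mural nuclei. In BAT replicate 1 Col12a1 was higher in mural nuclei (61.9 against 48.8 CPM), and in BAT replicate 2 Col14a1 was highest in Schwann nuclei. Col16a1 was at 130 to 251 CPM in Schwann nuclei, with a mean 9.37 times that of fibroblasts, the next class. Col19a1 was at 114 to 198 CPM in mural nuclei and at 0.778 to 3.27 CPM in fibroblasts, with a mean 15.03 times that of B lymphocytes, the next class. These classes did not overlap in any library.

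The multiplexin Col15a1, a chain of basement membrane zones, was highest in fibroblasts by its mean, at 74.7 to 117 CPM. In BAT replicate 2 it was highest in B lymphocytes, on 42 nuclei, where 3 UMIs already correspond to 54.6 CPM. Col18a1, whose product releases endostatin, was at 257 and 257 CPM in the lymphatic endothelium of taPVAT, and smooth muscle nuclei of BAT held 439 and 1161 CPM. The 2 BAT libraries had under 20 lymphatic nuclei each and give no value. Col8a1, a short-chain collagen of vessel walls, was highest in vascular endothelium in all 4 libraries, at 425 and 739 CPM in taPVAT and 353 and 386 CPM in BAT.

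Col7a1, the chain of the anchoring fibrils of skin, was highest in adipocytes by its mean, at 78.8 and 52.5 CPM in taPVAT and 60.9 and 17.0 CPM in BAT, but mural nuclei held 31.7 to 45.8 CPM and exceeded adipocytes in BAT replicate 2. Col28a1, which is known to surround Schwann cells, was at 37.2 and 52.4 CPM in the Schwann nuclei of BAT and at 7.72 CPM (6 UMIs) and 0 UMIs in those of taPVAT. With 49 Schwann nuclei, taPVAT replicate 2 gives a count of 0 that allows a level of up to 16.8 CPM (3 UMIs). The mural nuclei of taPVAT held Col28a1 at 15.7 and 8.77 CPM and were its highest class there. Col26a1 was highest in T or NK lymphocytes in every library, at 14.3, 93.1, 35.1 and 24.3 CPM in taPVAT replicates 1 and 2 and BAT replicates 1 and 2, on 5, 12, 14 and 4 UMIs, and it had 0 UMIs in B lymphocytes.

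In fibroblasts, the collagen gene that passed the main test between the fats was Col8a1, which was about 20 times higher in taPVAT. It stood at 255 and 134 CPM in taPVAT replicates 1 and 2 and at 12.2 and 6.31 CPM in BAT replicates 1 and 2. Both taPVAT libraries were far above both BAT libraries. The log2 fold change, taPVAT over BAT, was 4.27 ± 0.46 (SE, n = 2 and 2), with an adjusted p of 0.0134 by edgeR's quasi-likelihood test with Benjamini-Hochberg adjustment over all genes.

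It was the single member called (adjusted p under 0.05) of the 25 that passed the filter on low counts. Col8a1 passed this filter through its taPVAT libraries, as its BAT libraries held 24 and 7 UMIs. Of the 42 members, 17 did not pass it. Over all genes 22 of 9552 were called, 0.23%, of which 0.199% were higher and 0.0314% lower in taPVAT. An unadjusted p under 0.05 was found for 3 of the 25 members and for 4.97% of all genes. The median log2 fold change was -0.15 over the 25 members and -0.02 over all genes tested. In 9 of the 25 members the taPVAT and BAT libraries did not overlap, against 27.0% of all genes. When nuclei were assigned one by one from their own markers instead of by cluster, the Col8a1 difference was 3.57 and was no longer called (adjusted p of 0.295 by the same edgeR test).

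The 250 bases before the start of Col8a1 (RefSeq, GRCr8, chr11:56246532-56246781, plus strand) are shown because this gene carries the fibroblast result. Capitals mark GC boxes, all on the minus strand. They begin 183, 92, 85 and 43 bases before the start site, and none of the other 3 motifs searched was found in this window.
Col8a1 upstream: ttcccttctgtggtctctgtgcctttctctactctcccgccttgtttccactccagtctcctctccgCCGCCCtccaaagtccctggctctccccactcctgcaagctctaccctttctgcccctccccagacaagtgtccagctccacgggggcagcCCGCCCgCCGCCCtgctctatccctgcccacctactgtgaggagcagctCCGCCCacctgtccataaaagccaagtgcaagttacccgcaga

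Fibroblast Col8a1 in taPVAT lay in 1 cluster, the nuclei that carry Pi16 and Dpp4, genes known to mark fibroblasts of the outer vessel wall and of fascia. In that cluster Col8a1 was at 435 and 308 CPM in taPVAT and at 9.92 and 7.75 CPM in BAT. In the other fibroblast clusters of the same libraries it was at 21.1 and 4.07 CPM in taPVAT and at 12.6 and 5.87 CPM in BAT, where the tissues overlapped. Of the Col8a1 UMIs of taPVAT fibroblasts, 376 of 390 (96.4%, exact 95% interval 94.1 to 98.0) and 169 of 172 (98.3%, 94.99 to 99.6) were in the Pi16 Dpp4 cluster.

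The BAT libraries held 3 and 2 Col8a1 UMIs in this cluster. The ratio of taPVAT to BAT was 43.9 (95% counting interval 14.9 to 214) between the libraries numbered 1 and 39.7 (10.8 to 331) between those numbered 2. Fitted on the cluster alone, a choice made after seeing the data, the log2 fold change was 5.31 ± 0.47, and in the other clusters alone it was 0.31 ± 0.77. These values are given as a description only. In the cluster Col8a1 passed the filter on low counts through its taPVAT libraries. The summed vascular endothelial markers in the cluster were 329 and 115 CPM in taPVAT and 284 and 198 CPM in BAT, and the tissues overlapped. Other marker lists moved with Col8a1 there: the mesothelial list summed to 279 and 282 CPM in taPVAT and 52.9 and 42.6 CPM in BAT, and the pericyte list to 571 and 419 against 307 and 182 CPM, while the smooth muscle list went the other way (112 and 131 against 179 and 291 CPM). The list of Pi16 and Dpp4 summed to 773 and 946 against 569 and 190 CPM, and the fibroblast list to 10593 and 13797 against 9870 and 8191 CPM. Of the 11 mesothelial markers, 4 and 5 were at 0 in taPVAT and 8 and 8 in BAT. Wt1, Msln and Bnc1 were counted in both taPVAT libraries and were at 0 in both BAT libraries. Upk3b, Lrrn4, Krt19 and Krt18 were at 0 in all 4 libraries. Col8a1 itself was at 9.22 and 0 CPM in the mesothelial nuclei of taPVAT and at 108 and 89.4 CPM in its mural nuclei. The part of other cell types in the Col8a1 difference was not tested. The cluster held 53.6% (95% Wilson interval 50.3 to 56.8) and 42.1% (38.2 to 46.0) of fibroblasts in taPVAT and 14.8% (12.8 to 17.2) and 23.0% (19.9 to 26.3) in BAT, so a difference over the whole class also carries this difference in makeup.

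The FACITs Col14a1 and Col12a1 were also higher in taPVAT fibroblasts but did not pass the main test, which holds no term for the replicate number. Col14a1 was at 194 and 212 CPM in taPVAT and at 79.3 and 64.0 CPM in BAT. Col12a1 was at 197 and 329 CPM in taPVAT and at 48.8 and 136 CPM in BAT. The tissues did not overlap for either gene, and the log2 fold changes were 1.44 ± 0.30 for Col14a1 (adjusted p of 0.159, edgeR's quasi-likelihood test) and 1.44 ± 0.53 for Col12a1 (adjusted p of 0.73, same test).

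These 2 differed once the clusters were taken apart. Col14a1 was largely a gene of the Pi16 Dpp4 cluster in both fats, at 333 and 455 CPM in taPVAT and 301 and 202 CPM in BAT, against 13.6 to 39.1 CPM in the other clusters. Its log2 fold change was 0.61 ± 0.33 within the cluster and -0.52 ± 0.50 in the others. Col12a1 kept a larger difference within the cluster, at 313 and 623 CPM in taPVAT and 136 and 89.2 CPM in BAT. The log2 fold change there was 2.01 ± 0.41 (adjusted p of 0.0982, edgeR's quasi-likelihood test). In the other clusters it was -0.27 ± 0.69.

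Within the Pi16 Dpp4 cluster, Col1a1 and Col6a6 were at levels that the whole class did not show. Col1a1, the main chain of type I collagen, was at 390 and 481 CPM in taPVAT and at 1319 and 1357 CPM in BAT. Col6a6 was at 327 and 359 CPM in taPVAT and at 102 and 105 CPM in BAT. Neither passed the test: the log2 fold changes were -1.66 ± 0.31 for Col1a1 and 1.69 ± 0.31 for Col6a6, each with an adjusted p of 0.0652 by edgeR's quasi-likelihood test. Over all fibroblasts Col1a1 was at 261 and 310 against 325 and 475 CPM, and Col6a6 was at 363 and 454 against 644 and 486 CPM, which for Col6a6 is the opposite order.

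**Figure D2:**
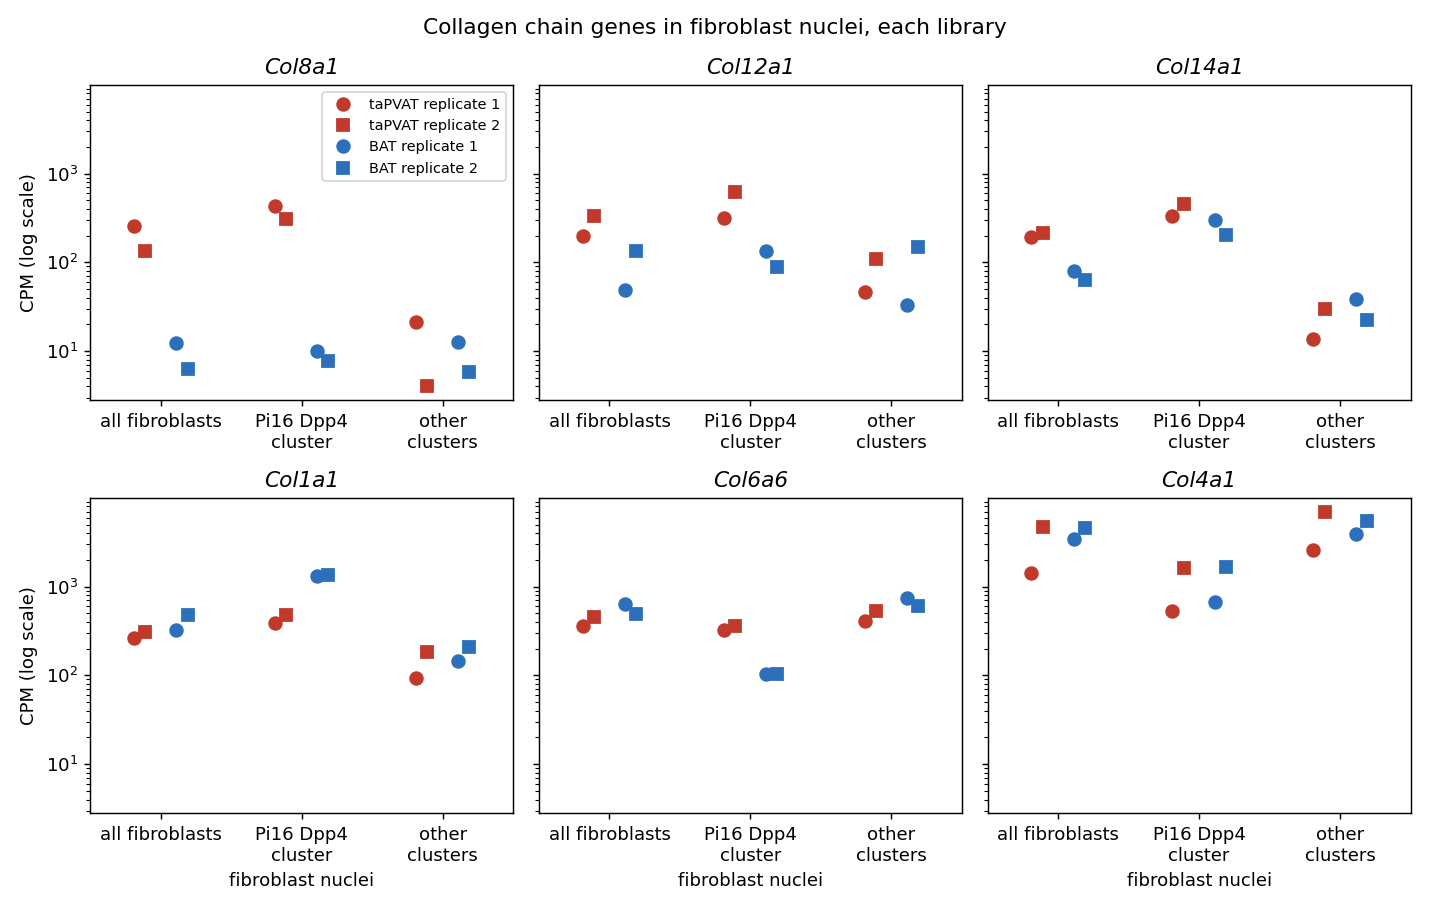
CPM on a log scale of 6 collagen chain genes in all fibroblasts, in the Pi16 Dpp4 cluster and in the other fibroblast clusters, with 1 point per library (circles are replicate 1, squares replicate 2, red is taPVAT and blue is BAT). Col8a1 is at 435 and 308 CPM in the taPVAT nuclei of the Pi16 Dpp4 cluster and at or below 21.1 CPM in the BAT nuclei and in the other clusters, while Col4a1 separates the replicate numbers rather than the tissues.

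None of the other fibroblast members named passed the test. Col5a3, a minor chain of type V collagen, was at 840 and 1622 CPM in taPVAT and at 1796 and 1804 CPM in BAT, with both taPVAT libraries below both BAT libraries. Col4a1 was at 1411 and 4635 CPM in taPVAT and at 3458 and 4565 CPM in BAT, and Col4a2 at 198 and 874 against 472 and 905 CPM. For both chains replicate 1 was the lower library of each tissue. Col5a1 was at 244 and 478 against 316 and 373 CPM, Col5a2 at 632 and 864 against 752 and 841 CPM, and Col4a4 at 183 and 287 against 205 and 258 CPM. The tissues overlapped for these 5 genes.

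In mural nuclei no member was called among the 23 tested, by edgeR's quasi-likelihood test. DESeq2 called 1, Col18a1. With edgeR 3 had an unadjusted p under 0.05, against 4.12% of all genes. Over all genes 1 of 8696 was called, 0.0115%. The taPVAT and BAT libraries of 9 of the 23 members did not overlap, against 30% of all genes, and the median log2 fold change was -0.13 over the members and 0.00 over all genes.

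The mural members with the smallest unadjusted p were lower in taPVAT and belong to smooth muscle. Col18a1 was at 83.9 and 102 CPM in taPVAT and at 212 and 477 CPM in BAT. The log2 fold change was -1.96 ± 0.46 (adjusted p of 0.874, edgeR). Col4a3 was at 24.0 and 15.8 CPM in taPVAT and at 66.5 and 66.8 CPM in BAT (-1.74 ± 0.34, adjusted p of 0.757, edgeR), and Col4a5 at 109 and 68.4 against 166 and 172 CPM (-0.96 ± 0.31). In the smooth muscle cluster Col18a1 was at 231 CPM in taPVAT replicate 1 and at 439 and 1161 CPM in BAT, and Col4a3 was at 58.3 against 131 and 164 CPM.

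That cluster made up 18.8% (95% Wilson interval 16.2 to 21.8) and 6.60% (4.26 to 10.1) of mural nuclei in taPVAT and 27.7% (24.2 to 31.5) and 25.1% (21.6 to 29.0) in BAT, so its share moved with these genes. With 19 nuclei of it, taPVAT replicate 2 gives no level, and a test within the cluster was not made. In the pericyte cluster alone the tissues did not overlap for Col4a3 (6.75 and 11.3 against 15.1 and 15.1 CPM) but overlapped for Col18a1 (10.1 and 52.8 against 30.2 and 115 CPM) and Col4a5. The Col4a3 levels there rest on few UMIs, as 3 UMIs correspond to 3.37 to 5.65 CPM in pericytes. Col4a3 did not pass the filter on low counts in the pericyte cluster.

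Col19a1 had opposite orders of the tissues in the class and in the pericyte cluster. Over all mural nuclei it was at 114 and 121 CPM in taPVAT and at 166 and 198 CPM in BAT (-0.68 ± 0.30). In pericytes it was at 60.7 and 88.6 CPM in taPVAT and at 19.2 and 36.8 CPM in BAT (1.32 ± 0.41, adjusted p of 0.999 in edgeR's quasi-likelihood test of the pericyte cluster). In smooth muscle it was at 220 CPM in taPVAT replicate 1 and at 350 and 503 CPM in BAT.

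Col6a6 and Col5a2 were higher in taPVAT mural nuclei without passing the test. Col6a6 was at 209 and 514 against 167 and 184 CPM (1.01 ± 0.46, adjusted p of 1.0, edgeR). In pericytes alone, which were 81.2% and 93.4% of mural nuclei in taPVAT and 72.3% and 74.9% in BAT, its log2 fold change was 0.54 ± 0.33. Over all mural nuclei Col5a2 was at 263 and 380 against 209 and 198 CPM. The fibroblast markers moved the same way there, summing to 830 and 1131 CPM in taPVAT and 510 and 619 CPM in BAT. Their part in both genes was not tested. Col8a1 did not repeat the fibroblast difference: it was at 108 and 89.4 CPM in taPVAT and at 125 and 127 CPM in BAT. Col4a1 was at 1460 and 2560 against 1742 and 2437 CPM, Col4a2 at 291 and 494 against 227 and 440 CPM, Col3a1 at 155 and 233 against 302 and 220 CPM, and Col6a2 at 119 and 242 against 129 and 228 CPM, all with overlapping tissues.

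**Figure D3:**
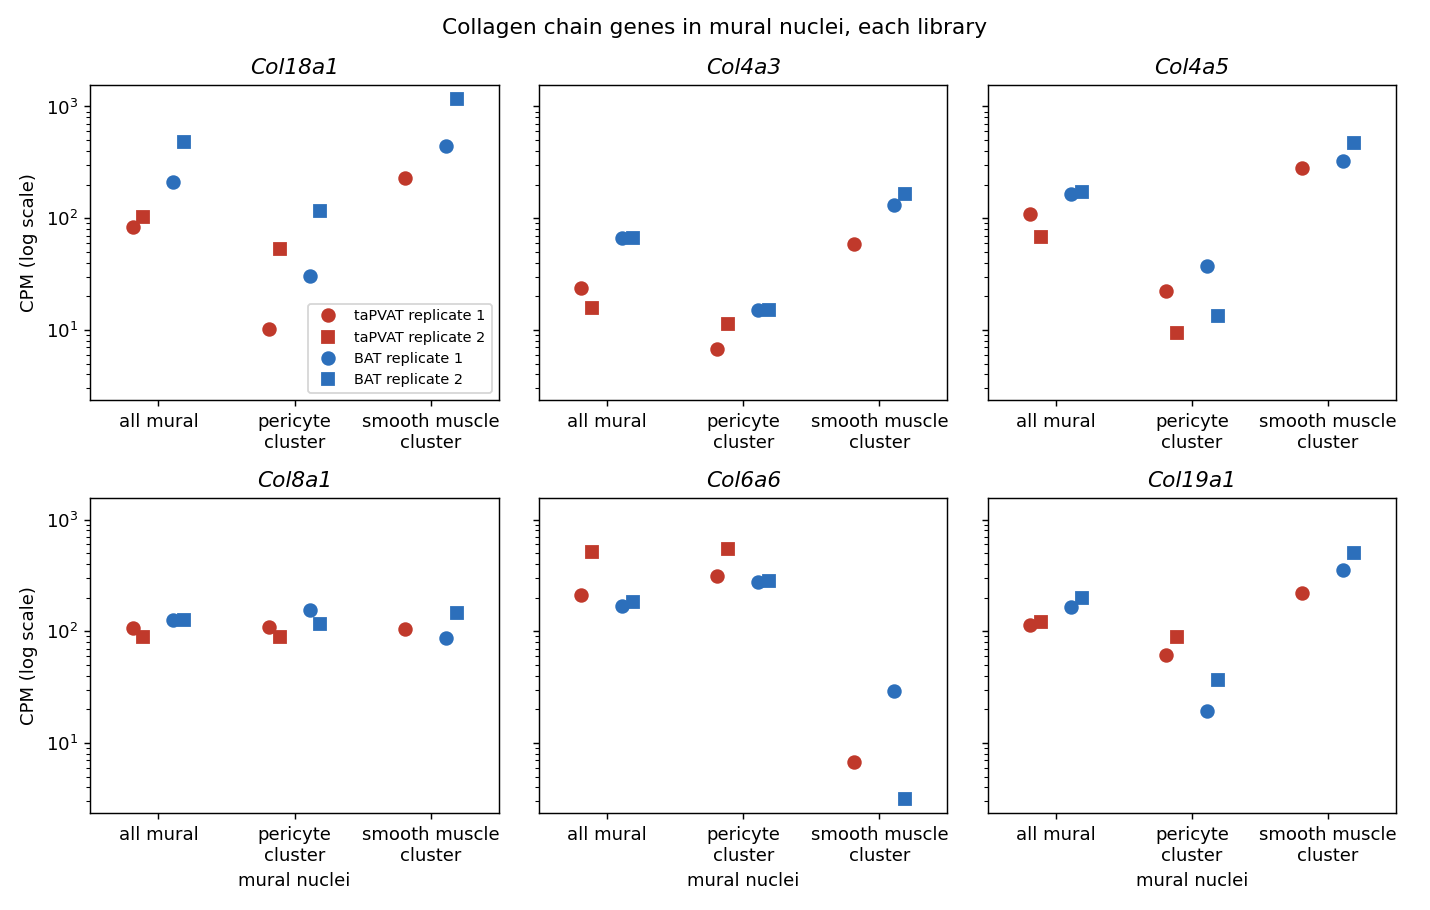
CPM on a log scale of 6 collagen chain genes in all mural nuclei, the pericyte cluster and the smooth muscle cluster, with 1 point per library and the same symbols as for fibroblasts. The smooth muscle cluster has no point for taPVAT replicate 2, which held 19 such nuclei. Col18a1, Col4a3 and Col4a5 are lower in taPVAT over all mural nuclei and are higher in smooth muscle than in pericytes in each library shown, and Col19a1 is higher in taPVAT in pericytes only.

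In adipocytes no member was called among the 34 tested, and none had an unadjusted p under 0.05 by edgeR's quasi-likelihood test. DESeq2 called none of them either. Over all genes edgeR called 0 of 15540, 0.0%, and DESeq2 called 56, while 330 (2.12%) had an unadjusted p below 0.05 in edgeR. For 9 of the 34 members taPVAT and BAT were apart, against 20.7% of all genes, and the median log2 fold change was 0.06 over the members and 0.01 over all genes.

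For several members the adipocyte libraries differed by replicate number and not by tissue. The adipocyte clusters also split by library: the 4 largest held 20401 of 20908 nuclei from taPVAT replicate 1, 17491 of 20707 from BAT replicate 1, 16337 of 18348 from BAT replicate 2 and 6565 of 6805 from taPVAT replicate 2. Col4a1 was at 541 and 1220 CPM in taPVAT replicates 1 and 2 and at 462 and 1253 CPM in BAT replicates 1 and 2. Col4a2 was at 89.4 and 217 against 53.7 and 305 CPM, Col12a1 at 36.8 and 82.0 against 46.6 and 126 CPM, and Col27a1 at 12.7 and 50.8 against 14.0 and 41.6 CPM. Col5a3 went the other way, at 43.1 and 19.0 CPM in taPVAT and 36.0 and 17.7 CPM in BAT.

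Col1a1 was the adipocyte member with the smallest p, at 6.71 and 5.74 CPM in taPVAT and 7.94 and 17.5 CPM in BAT (-1.02 ± 0.47, adjusted p of 1.0, edgeR). Its adipocyte level was 1.85% to 3.70% of its fibroblast level, above the median fibroblast marker (1.38% to 1.96%) and below the highest one in each of the 4 libraries. The part of free fibroblast RNA in it was not tested. Col20a1, a FACIT relative, was at 7.70 and 8.75 against 10.5 and 15.9 CPM and Col18a1 at 18.0 and 25.1 against 25.5 and 29.2 CPM, in both cases with no overlap between the tissues. Col7a1 (78.8 and 52.5 against 60.9 and 17.0 CPM) overlapped. With BAT replicate 1 left out, which leaves BAT replicate 2 as the only BAT library, its log2 fold change was 1.88. Col5a1 was at 27.6 and 37.3 against 31.3 and 34.0 CPM and Col3a1 at 19.9 and 14.2 against 17.0 and 27.7 CPM.

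**Figure D4:**
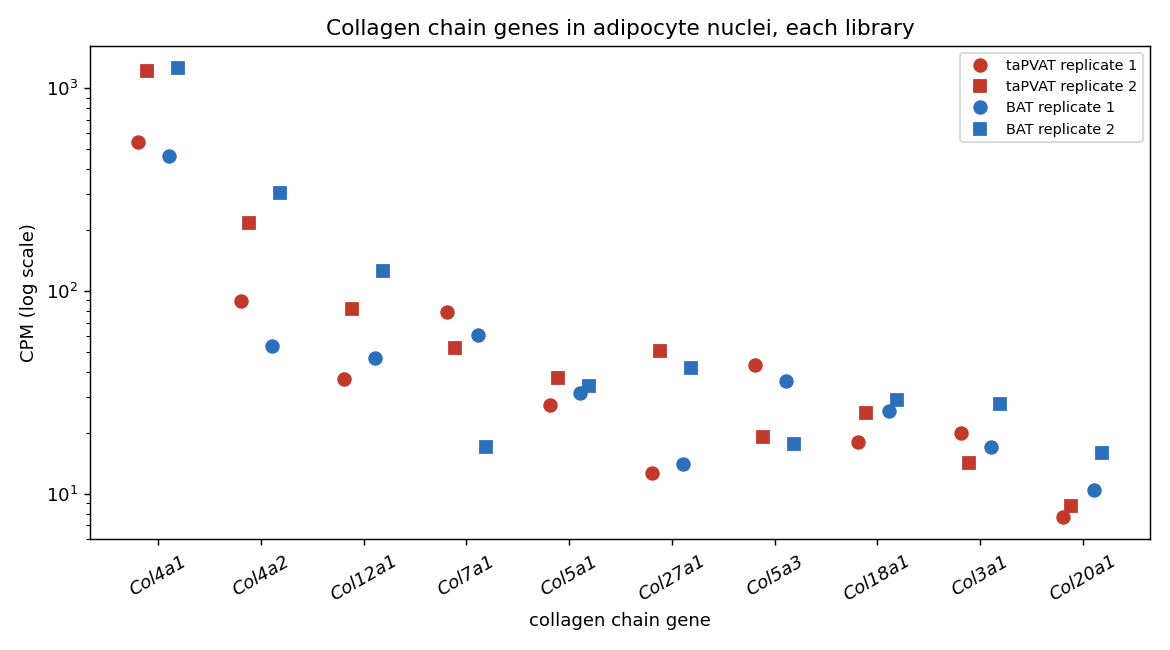
CPM on a log scale of 10 collagen chain genes in adipocyte nuclei, with 1 point per library (circles are replicate 1, squares replicate 2, red is taPVAT and blue is BAT). Col4a1, Col4a2, Col12a1 and Col27a1 are higher in both replicate 2 libraries, at 1220 and 1253 CPM against 541 and 462 CPM for Col4a1.

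Whether the tissue difference of a gene differed between classes was tested in fits with a term for each library. Between fibroblasts and mural nuclei 4 of the 30 members tested were called by edgeR's quasi-likelihood test, and 75 of 10096 genes, 0.743% (0.614% with the larger taPVAT level in fibroblasts and 0.129% with the smaller). Col8a1 had the largest difference, 4.65 ± 0.38 on the log2 scale (adjusted p of 0.000109, edgeR): it was higher in taPVAT in fibroblasts and not in mural nuclei. Col4a3 (1.88 ± 0.36, adjusted p of 0.027, edgeR) and Col4a5 (1.61 ± 0.34, adjusted p of 0.0458, edgeR) were lower in the mural nuclei of taPVAT. Both are chains of the same type IV network, and in fibroblasts neither was lower in taPVAT. Fibroblast Col4a5 was at 88.4 and 102 CPM in taPVAT and at 50.8 and 68.5 CPM in BAT (0.61 ± 0.33).

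Col5a3 went the other way (-1.46 ± 0.30, adjusted p of 0.0397, edgeR), with taPVAT lower in fibroblasts and higher in mural nuclei by the fitted values. In mural nuclei it was at 124 and 231 against 71.0 and 125 CPM, and the tissues overlapped. The log2 fold change was -0.60 in all fibroblasts, -0.23 in the Pi16 Dpp4 cluster and -0.27 in the other clusters. It was 0.80 in all mural nuclei and 0.45 in pericytes. In neither class did Col4a3, Col4a5 or Col5a3 pass the test on its own. Without BAT replicate 1 the count of called members was 2, with Col5a3 and Col4a5 lost, without taPVAT replicate 2 Col4a5 was lost, and without BAT replicate 2 Col4a3 was lost. With DESeq2, with at least 1000 genes per nucleus and with the per-nucleus marker gate, Col8a1 was the 1 member called. Col12a1 lay just outside the threshold (1.94 ± 0.42, adjusted p of 0.0515).

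Between fibroblasts and adipocytes no member was called among 36 tested by edgeR's quasi-likelihood test, and 2 had an unadjusted p under 0.05. DESeq2 called 2. Over all genes 2 of 15328 were called, 0.013%. Col8a1 (3.91 ± 0.52, adjusted p of 0.0503) and Col12a1 (2.02 ± 0.31, adjusted p of 0.082) were nearest. In adipocytes Col8a1 was at 0.818 to 2.10 CPM and Col12a1 at 36.8 to 126 CPM.

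**Figure D5:**
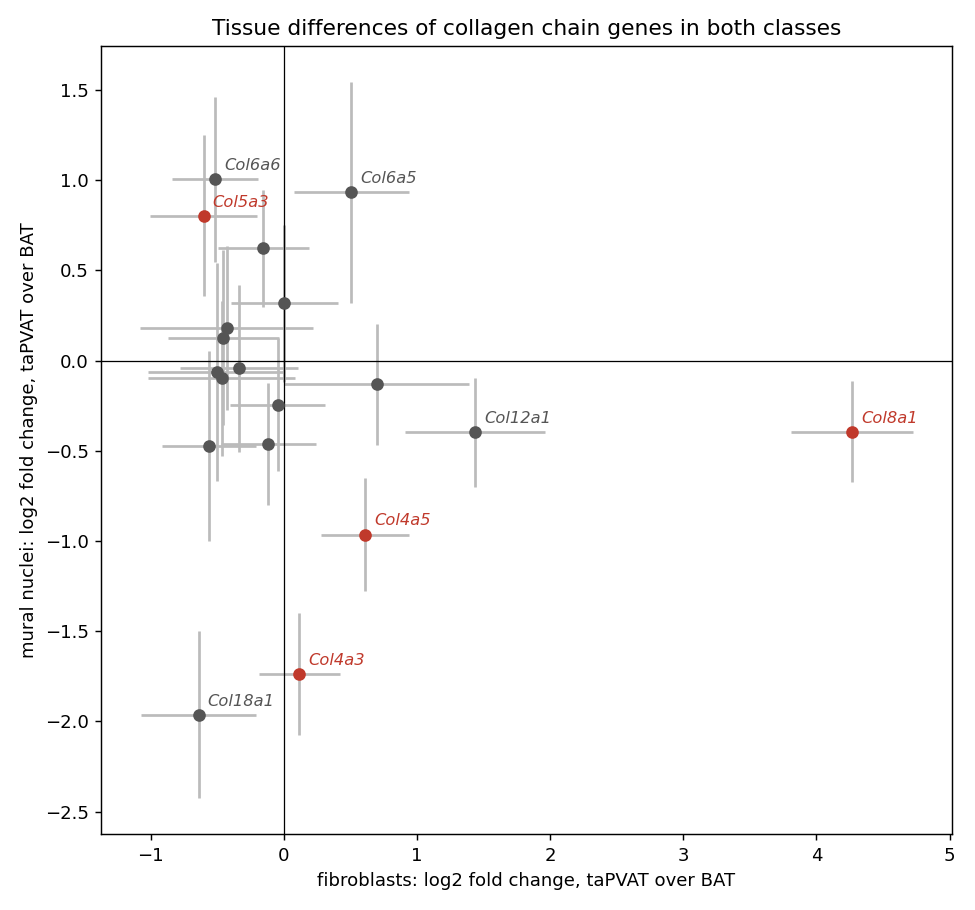
Log2 fold change, taPVAT over BAT, in mural nuclei (vertical axis) against fibroblasts (horizontal axis) for the 19 collagen chain genes tested in both, with bars of 1 SE. The 4 red genes are those whose difference between the classes was called: Col8a1 at 4.27 in fibroblasts and -0.39 in mural nuclei, Col4a3 and Col4a5 low in mural nuclei, and Col5a3 at -0.60 and 0.80.

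Genes that act on collagen were followed from a list of 54 enzymes, receptors, proteoglycans and turnover genes. In fibroblasts 1 of the 40 tested was called, higher in taPVAT, and in mural nuclei (28 tested) and adipocytes (49 tested) none was called by edgeR's quasi-likelihood test. Over all genes 0.23%, 0.0115% and 0.0% were called in the 3 classes. The called gene was Plod2, a lysyl hydroxylase of the collagen ends that sets the kind of crosslink. Plod2 passed the filter on low counts through its taPVAT libraries, as its BAT libraries held 16 and 5 UMIs. It was at 197 and 158 CPM in taPVAT fibroblasts and at 8.14 and 4.51 CPM in BAT fibroblasts, with no overlap (log2 fold change of 4.68 ± 0.39, adjusted p of 0.0108, edgeR).

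Plod2 and Col8a1 were unlike in where they lay. Plod2 was at 257 and 271 CPM in the Pi16 Dpp4 cluster of taPVAT and still at 119 and 73.3 CPM in the other fibroblast clusters of taPVAT, while those clusters of BAT held 7.81 and 4.70 CPM. The mesothelial markers moved with it, summing to 225 and 228 CPM in taPVAT fibroblasts and 34.1 and 33.3 CPM in BAT fibroblasts. Of these markers, Wt1, Msln and Bnc1 were counted in both taPVAT libraries and were at 0 in both BAT libraries. Upk3b, Krt19 and Krt18 were at 0 in all 4 libraries. Mesothelial nuclei of taPVAT held Plod2 at 162 and 394 CPM, and their part in the fibroblast values was not tested. In mural nuclei Plod2 was at 93.7 and 224 CPM in taPVAT and at 119 and 108 CPM in BAT, with overlap.

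Of the 40 genes tested in fibroblasts, 21 were higher and 19 lower in taPVAT by their fitted value. By group, folding and modification had 3 higher and 12 lower (median -0.13), cleavage and crosslinking 5 and 4, and turnover 3 and 3. All 5 tested proteoglycans that bind fibrils had positive log2 fold changes there, with a median of 0.80, as did all 5 tested collagen receptors, with a median of 0.23, and none was called. The proteoglycans were positive for 6 of 6 in adipocytes and 1 of 3 in mural nuclei. The median over all genes tested in fibroblasts was -0.02. The fibroblast markers, which include Dcn and Lum, summed to 9084 and 9932 CPM in taPVAT fibroblasts and 6827 and 5621 CPM in BAT fibroblasts, and the share of Pi16 Dpp4 nuclei, given above, also differed. Their part in these values was not tested. Lum, or lumican, was at 39.9 and 67.7 CPM in taPVAT and at 27.5 and 21.6 CPM in BAT (1.07 ± 0.38, adjusted p of 0.695, edgeR). Timp3, an inhibitor of matrix proteases, was at 394 and 1452 against 1453 and 2590 CPM, and Adamts14, which trims the ends of procollagen, at 102 and 91.0 against 341 and 96.4 CPM.

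In mural nuclei Loxl1, a crosslinking enzyme, was at 5.24 CPM (7 UMIs) and 0 UMIs in taPVAT and at 19.9 and 29.6 CPM in BAT. P3h2, a prolyl 3-hydroxylase that acts on type IV collagen, was at 151 and 78.9 against 249 and 303 CPM. Both were higher in smooth muscle than in pericytes. In smooth muscle Loxl1 was at 15.7 CPM in taPVAT replicate 1 and 43.1 and 79.1 CPM in BAT, against 0 to 3.35 CPM in pericytes. P3h2 was at 301 CPM in smooth muscle of taPVAT replicate 1 and at 450 and 784 CPM in that of BAT. Pericytes still held P3h2 at 24.5 to 89.2 CPM. The smooth muscle markers moved with both genes, summing to 2446 and 2262 CPM in taPVAT mural nuclei and 4182 and 4897 CPM in those of BAT. Their part was not tested. Dcn was at 59.2 and 68.4 against 34.4 and 36.1 CPM and P4hb at 25.5 and 31.6 against 18.3 and 19.7 CPM. None was called. The tissues did not overlap for Loxl1, P3h2, Dcn and P4hb, which were picked for a small p, and did not overlap for 30% of all genes. The fibroblast markers, of which Dcn is one, summed to 830 and 1131 CPM in taPVAT mural nuclei and to 510 and 619 CPM in those of BAT, and their part in the Dcn values was not tested.

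In adipocytes the 2 higher and 2 lower genes with the smallest p were Lum (1.74 and 1.85 against 0.711 and 0.912 CPM), Fmod (0.527 and 0.278 against 0.155 and 0.211 CPM), P3h3 (16.3 and 11.1 against 23.9 and 22.1 CPM) and Bmp1 (4.55 and 3.85 against 4.85 and 7.12 CPM). None was called. The tissues did not overlap for any of the 4, which were picked for a small p, and did not overlap for 20.7% of all genes. Plod2, the gene called in fibroblasts, was at 1.98 and 0.953 against 0.335 and 0.825 CPM and was not called. In these nuclei the fibroblast markers, of which Lum is one, summed to 121 and 99.5 CPM in taPVAT and 79.2 and 78.7 CPM in BAT, and the mesothelial markers to 226 and 185 against 97.6 and 104 CPM. Their part in these values was not tested.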

How the data were processed

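The deposited matrices hold raw counts of UMIs per gene and barcode. Per the submitters' processing notes, the authors used Cell Ranger 7.1.0 and the build Rnor_6.0, while how introns and strand were handled is not given in the sources used here. Overlapping genes are therefore uncertain. Per the labels' protocols, nuclei came from about 50 mg of tissue with a 10x 3' kit.

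Barcodes with at least 500 genes were kept and Scrublet doublets removed. The caller failed in taPVAT replicate 2 (3 of 12336 called), where the 421 highest scores were removed at the ratio of the other libraries. Leiden clusters (scanpy 1.11.5, leidenalg 0.10.2) from 3000 variable genes without collagens were named from marker lists. The 9 clusters low in adipocyte markers were clustered again. Clusters with markers of 2 classes were left out as mixed. The Pi16 Dpp4 cluster is named by 2 genes only.

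UMIs were summed per class and library where a library held at least 20 nuclei. The main test was the quasi-likelihood test of edgeR 4.0.16 (R 4.3.3, TMM, filterByExpr, Benjamini-Hochberg over all genes of a fit), with DESeq2 1.42.0 as an alternative. SE is the absolute log2 fold change over the root of F. The main edgeR tests of the tissues and of the class differences were also run on simulated data. DESeq2 and the other alternatives were not. An interval or a limit of 3 UMIs covers counting error only.

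The members and lists were chosen with earlier results of these data known. The text names members that were called, the 10 of highest CPM per class tested, those with a log2 change of at least 1 in the same direction in both replicate numbers, those with a called difference between classes and up to 3 per further class that stand highest over the next class. Of the other genes of the collagen pathway it names those called and the 2 higher and 2 lower ones of smallest p per class.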

Additional observations from a re-analysis of the deposited data

Results flagged for a closer look

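For 4 members the difference between the tissues was not the same in fibroblasts and in mural nuclei, by the test of the difference itself (edgeR's quasi-likelihood test with Benjamini-Hochberg adjustment). On the log2 scale, fibroblasts minus mural nuclei, it was 4.65 for Col8a1, 1.88 for Col4a3, 1.61 for Col4a5 and -1.46 for Col5a3. Col8a1 kept this call under each of the 10 alternatives run, while Col4a3, Col4a5 and Col5a3 each lost it under at least 1 left-out library, under DESeq2, with at least 1000 genes per nucleus and with the per-nucleus marker gate. The share of Pi16 Dpp4 nuclei among fibroblasts and of smooth muscle among mural nuclei differed between the tissues as given above, and its part in these differences was not tested.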

How the results depend on the processing

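Counts of called collagen genes moved with the setting, and the cause was not tested. In fibroblasts it was 1, but 3 with no filter on low counts, 3 with the replicate block, 0 with the per-nucleus marker gate, 0 in the other fibroblast clusters and 1 to 2 with a library left out. All called genes there were 22, but 49 (DESeq2), 186 (no filter), 394 (block), 2 (gate), 6 (other clusters) and 43 to 112 with a library left out. In mural nuclei called collagen genes were 1 with DESeq2, 2 with no filter and 0 to 4 with a library left out. All called genes were 14, 90, 2 (block), 0 (at least 1000 genes per nucleus), 0 (gate), 5 (pericytes) and 0 to 307. In adipocytes all called genes were 56 (DESeq2), 29 (no filter), 164 (block) and 0 to 118, and called collagen genes were 0 to 1 with a library left out. Members with a called difference between fibroblasts and mural nuclei were 1 with DESeq2, 1 from 1000 genes per nucleus, 1 with the gate and 2 to 6 with a library left out. Against adipocytes they were 2 (DESeq2), 2 (no filter), 2 (1000 genes), 1 (no doublet removal), 1 (gate) and 2 to 3.

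With the replicate block Col14a1 (1.44, adjusted p of 2.58e-06) and Col12a1 (1.57, adjusted p of 1.51e-07, edgeR) passed the test in fibroblasts. Same-numbered libraries deviated together (correlations across genes of 0.435, 0.348 and 0.773 in fibroblasts, mural nuclei and adipocytes), but 2 pairs do not show that the numbers pair the samples.

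The direction turned for these log2 fold changes. In fibroblasts, Col14a1 was -0.52 and Col12a1 -0.27 in the other clusters. In the Pi16 Dpp4 cluster Col4a2 was 0.15, Col6a6 1.69, Col5a1 -0.19 and Col4a4 0.10. Col5a1 was -0.00301 with RLE scaling, -0.00637 with DESeq2, -0.0154 with no filter and -0.0731 with the block, and Col4a4 was 0.0521 with the gate. In mural nuclei Col4a1 was 0.10 from 1000 genes, Col19a1 1.32 in pericytes and P4hb -0.0501 with the gate. In adipocytes Col4a2 was 0.16 with the block. With a library left out, fibroblast ranges were -1.61 to 0.17 for Col4a1, -0.41 to 0.13 for Col3a1, -1.07 to 0.14 for Col6a2, -0.43 to 0.0818 for Col5a2, -1.92 to 0.29 for Col4a2, -0.60 to 0.43 for Col5a1 and -0.44 to 0.27 for Col4a4. Mural ranges were -0.62 to 0.28 for Col4a1, -0.30 to 0.83 for Col4a2 and -0.68 to 0.52 for Col6a2. Adipocyte ranges were -0.69 to 1.02 for Col4a1, -1.04 to 1.61 for Col4a2, -1.25 to 0.45 for Col12a1, -0.25 to 0.22 for Col5a1, -1.16 to 1.28 for Col27a1, -0.45 to 0.74 for Col5a3 and -0.77 to 0.0747 for Col3a1. Of the other values of single genes, 541 kept direction and side of the threshold, 37 came to pass it and 16 ceased to. A limit of 10% mitochondrial UMIs was not run for fibroblasts, mural nuclei or the differences between classes, as a library then held under 20 nuclei. With a library left out, the lone library of a tissue is assumed to vary like the other tissue's.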

Other observations

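Within the vascular endothelium, the Col8a1 level differed widely between clusters, which is given as a description with no test. In the cluster led by Eln and Dkk2, Col8a1 was at 2390 and 3985 CPM in taPVAT and at 2231 and 2321 CPM in BAT. These rest on 145, 36, 110 and 173 nuclei. The lower taPVAT library (2390 CPM) lay close to the higher BAT library (2321 CPM). The share of all genes without overlap was not counted in this cluster. In the cluster led by Pgm5 and Dnm3 it was at 709 and 1834 CPM in taPVAT and at 138 and 239 CPM in BAT, on 194, 24, 32 and 21 nuclei. In the cluster led by Ccdc85a and Cyyr1 it was at 7.43 CPM in taPVAT replicate 1 and 3.01 CPM in BAT replicate 1. The replicate 2 libraries held 0 UMIs of it there on 24 and 29 nuclei, which allows up to 95.7 and 79.7 CPM. Col18a1 was at 329 and 384 against 200 and 402 CPM in the Eln Dkk2 cluster.

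The remaining 11 members had under 20 UMIs in their highest class. Mesothelial nuclei of taPVAT held Col4a6 at 7.17 and 19.5 CPM (7 and 4 UMIs) and Col6a4 at 10.2 and 24.3 CPM (10 and 5 UMIs). Lymphatic nuclei held Col13a1 on 7 and 6 UMIs in taPVAT. Vascular endothelium held Col9a1 at 1.14 to 2.25 CPM. Col9a3 and Col9a2 in Schwann nuclei, Col2a1 and Col10a1 in T or NK nuclei and Col20a1 in B nuclei rested on 7, 1, 1, 3 and 6 UMIs, Col22a1 in mesothelial nuclei rested on 3 UMIs, and Col23a1 had 1 UMI in all nuclei.

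Of the members with at least 20 UMIs in their highest class, Col8a2 was at 52.7 and 49.4 CPM in the lymphatic nuclei of taPVAT, on 16 and 5 UMIs, and Col17a1 was at 7.87 and 17.7 CPM in the myeloid nuclei of taPVAT and at 9.61 and 8.94 CPM in those of BAT.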
